A study of Homo sapiens with 9 samples.

Results

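The genes described here are the 4 human HOX clusters with their antisense and intergenic noncoding RNAs, taken by name from the GENCODE 29 annotation: HOXA to HOXD followed by a number, the HOX antisense genes named HOXA-AS to HOXD-AS, and HAGLR, HAGLROS, HOTAIR, HOTAIRM1 and HOTTIP. They are 55 of the 56823 genes to which reads were summed, 39 of them coding and 16 noncoding. HOXC5 counts as 2 genes, because the annotation holds a coding gene and a processed transcript of that name. RNA came from H1975, an established line of EGFR-mutant human lung adenocarcinoma, in which doxycycline switches on dCas9-KRAB, a catalytically dead Cas9 fused to a repressor domain. Every library, controls included, carried this fusion and was treated with 4 µg/ml doxycycline for 72 h. The groups were the libraries labelled TRIDENT gRNA2, the libraries labelled TRIDENT gRNA1 and controls with a non-targeting guide, with 3 libraries each. TRIDENT is the long noncoding RNA against which the guides were directed.

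HOX genes encode transcription factors with a homeodomain, a DNA-binding fold, that give cells their position along the body axis. Within a cluster the genes lie in the order of the body regions they specify, from group 1 at the anterior end to group 13 at the posterior end, and genes of one number in different clusters are paralogues. The clusters are a classical target of Polycomb repression and trithorax activation, and retinoic acid induces their anterior genes in development. Noncoding RNAs are transcribed between and against the genes. HOTAIR has been studied as a repressor of HOXD genes, HOTTIP as an activator of posterior HOXA genes, HOTAIRM1 as a transcript of the myeloid lineage, and HAGLR as an RNA of the anterior HOXD end that runs away from HOXD1 on the opposite strand, with HAGLROS in turn on the strand opposite HAGLR. Adult cells keep a HOX pattern of their tissue of origin.

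Among these genes the noncoding RNA HAGLR was 2.43-fold higher in the gRNA2-labelled and 3.42-fold higher in the gRNA1-labelled libraries than in controls. Its coding neighbour HOXD1 had a fold of 3.55 in the gRNA2-labelled libraries, on few reads; it entered the test only through libraries where it was high, and the call ended in 5 of the 9 fits that left out a library and with the transcript length offset. No other HOX gene passed the test against control. The sequences of the start regions at the HAGLR and HOXD1 ends come first, since the reads of HAGLR divide between them. They are RefSeq promoter windows of 300 bases on GRCh38.p14, which span the start of a transcript, printed 5′ to 3′ on the strand of the gene. Capitals mark CACGTG, which reads the same on both strands, and CCAAT or its reverse complement ATTGG.
HOXD1, chr2:176188418-176188717, plus strand: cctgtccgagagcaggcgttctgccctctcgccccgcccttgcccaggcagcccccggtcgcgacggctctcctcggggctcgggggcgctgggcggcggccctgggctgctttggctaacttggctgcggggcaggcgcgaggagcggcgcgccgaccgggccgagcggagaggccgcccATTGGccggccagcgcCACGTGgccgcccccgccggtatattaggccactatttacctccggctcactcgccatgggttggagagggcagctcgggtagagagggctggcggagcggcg
HAGLR, start beside HOXD1, chr2:176188523-176188822, minus strand: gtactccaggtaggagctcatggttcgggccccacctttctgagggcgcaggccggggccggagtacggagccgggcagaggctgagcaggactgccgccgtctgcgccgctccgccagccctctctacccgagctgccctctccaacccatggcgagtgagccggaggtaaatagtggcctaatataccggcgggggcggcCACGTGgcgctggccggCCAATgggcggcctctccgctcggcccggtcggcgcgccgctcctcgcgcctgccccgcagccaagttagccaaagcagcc
HAGLR, internal start, chr2:176178080-176178379, minus strand: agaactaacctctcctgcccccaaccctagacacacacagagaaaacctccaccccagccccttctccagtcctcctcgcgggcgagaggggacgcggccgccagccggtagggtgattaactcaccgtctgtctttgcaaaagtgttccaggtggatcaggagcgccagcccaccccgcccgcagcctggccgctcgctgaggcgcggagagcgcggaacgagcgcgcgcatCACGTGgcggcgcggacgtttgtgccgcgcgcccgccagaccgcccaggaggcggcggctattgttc

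RefSeq holds a further 2 HAGLR windows at the HOXD1 end, not printed: that of bases 176188909 to 176189208 has neither motif, and that of bases 176188220 to 176188519 has 1 ATTGG, no CACGTG and 102 bases in common with the HOXD1 window. The first 2 windows printed face each other and share 195 bases. The capitals in them are the same letters read from opposite strands, CACGTG at bases 176188615 to 176188620 and CCAAT at bases 176188599 to 176188603. The internal window holds a CACGTG of its own at bases 176178141 to 176178146 and no CCAAT. Of 35116 RefSeq promoter windows of this length, searched on both strands, 7.26% hold CACGTG and 34.6% hold CCAAT. The TATA box letters TATAAA, present in 11.5% of windows, and the HOX-PBX letters TGATTNAT, present in 2.82%, were in none of the 3 printed. The windows are rich in CG pairs: the HOXD1 window has 36, the HAGLR window beside it 31 and the internal window 33, against a median of 14, and 12.7%, 20.7% and 17.2% of all windows have at least as many.

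The libraries held 16918432 to 26466536 estimated reads over all listed transcripts. A gene counted as measured where it passed the edgeR filter, which asks for about 0.452 CPM (reads scaled to the size of the library), or about 10 reads, in at least 3 libraries. The 6 epithelial markers read (EPCAM, CDH1 and 4 keratins) all had over 10 reads in every library, and NKX2-1, the lung lineage factor, stood at 53.2 to 68.4 CPM, NAPSA had 50 to 102 and SFTPB 12 to 40 reads, SFTPC, of mature alveolar cells, had at most 1 read and SCGB1A1, of club cells, had 0. Among stromal markers COL1A1 had 225 to 407 reads, PDGFRB 4 to 10 and LUM at most 1, and COL3A1 had 0 in every library. Among blood cell markers CD68 had 983 to 1685 reads, PTPRC 38 to 54 and CD3E at most 1, and HBB had 0. Of 3 endothelial markers, none at 0 throughout, the summed level was 3.93 to 4.5 CPM in the gRNA2-labelled, 5.08 to 5.42 CPM in the gRNA1-labelled and 2.93 to 3.37 CPM in the control libraries. PECAM1 had 28 to 57 reads, CDH5 13 to 59 and VWF 5 to 13. The part of these markers in the results was not tested. RefSeq gives the synonym TRIDENT to a gene annotated here as AC005736.1 (chromosome 16, 3931217 to 3950586), and also to FOXM1. AC005736.1 had 61, 60 and 42 reads in gRNA2-labelled, 36, 49 and 38 in gRNA1-labelled and 49, 56 and 62 in control libraries. Its fold was 0.945 (95% interval 0.753 to 1.19, edgeR adjusted p = 0.81) for gRNA2 and 0.745 (0.588 to 0.943, adjusted p = 0.128) for gRNA1 against control, so a knockdown by the labels' guides did not pass the test in these files.

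H1975 cells used few HOX genes, and mostly those of HOXC. Of the 55 genes, 14 were measured, of which 13 are coding and 1, HAGLR, is noncoding. Another 30 (19 coding, 11 noncoding) had reads but stayed below the filter, and 11 (7 coding, 4 noncoding) had no read in any library. With 198879828 reads over all listed transcripts, a count of 0 allows a level of up to 0.0151 CPM, which covers counting error only. Of the 6630 reads on HOX-cluster genes, 3902 (58.9%) lay on HOXC, 1671 on HOXA, 923 on HOXD and 134 on HOXB. In TPM (transcript abundance scaled to length and depth), which divides by length and so allows genes to be compared, HOXC summed to 13.6 ± 0.389 in gRNA2-labelled, 11.9 ± 1.49 in gRNA1-labelled and 13.2 ± 1.1 in control libraries (SD, n = 3 each). HOXA summed to 6.97 ± 0.441 TPM in gRNA2-labelled, 6.76 ± 1.45 TPM in gRNA1-labelled and 6.80 ± 0.256 TPM in control libraries. HOXD summed to 2.41 ± 0.555 TPM in gRNA2-labelled, 3.33 ± 0.693 TPM in gRNA1-labelled and 1.15 ± 0.527 TPM in control libraries. HOXB summed to 0.546 ± 0.22 TPM in gRNA2-labelled, 0.957 ± 0.178 TPM in gRNA1-labelled and 0.757 ± 0.122 TPM in control libraries.

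**Figure D1:**
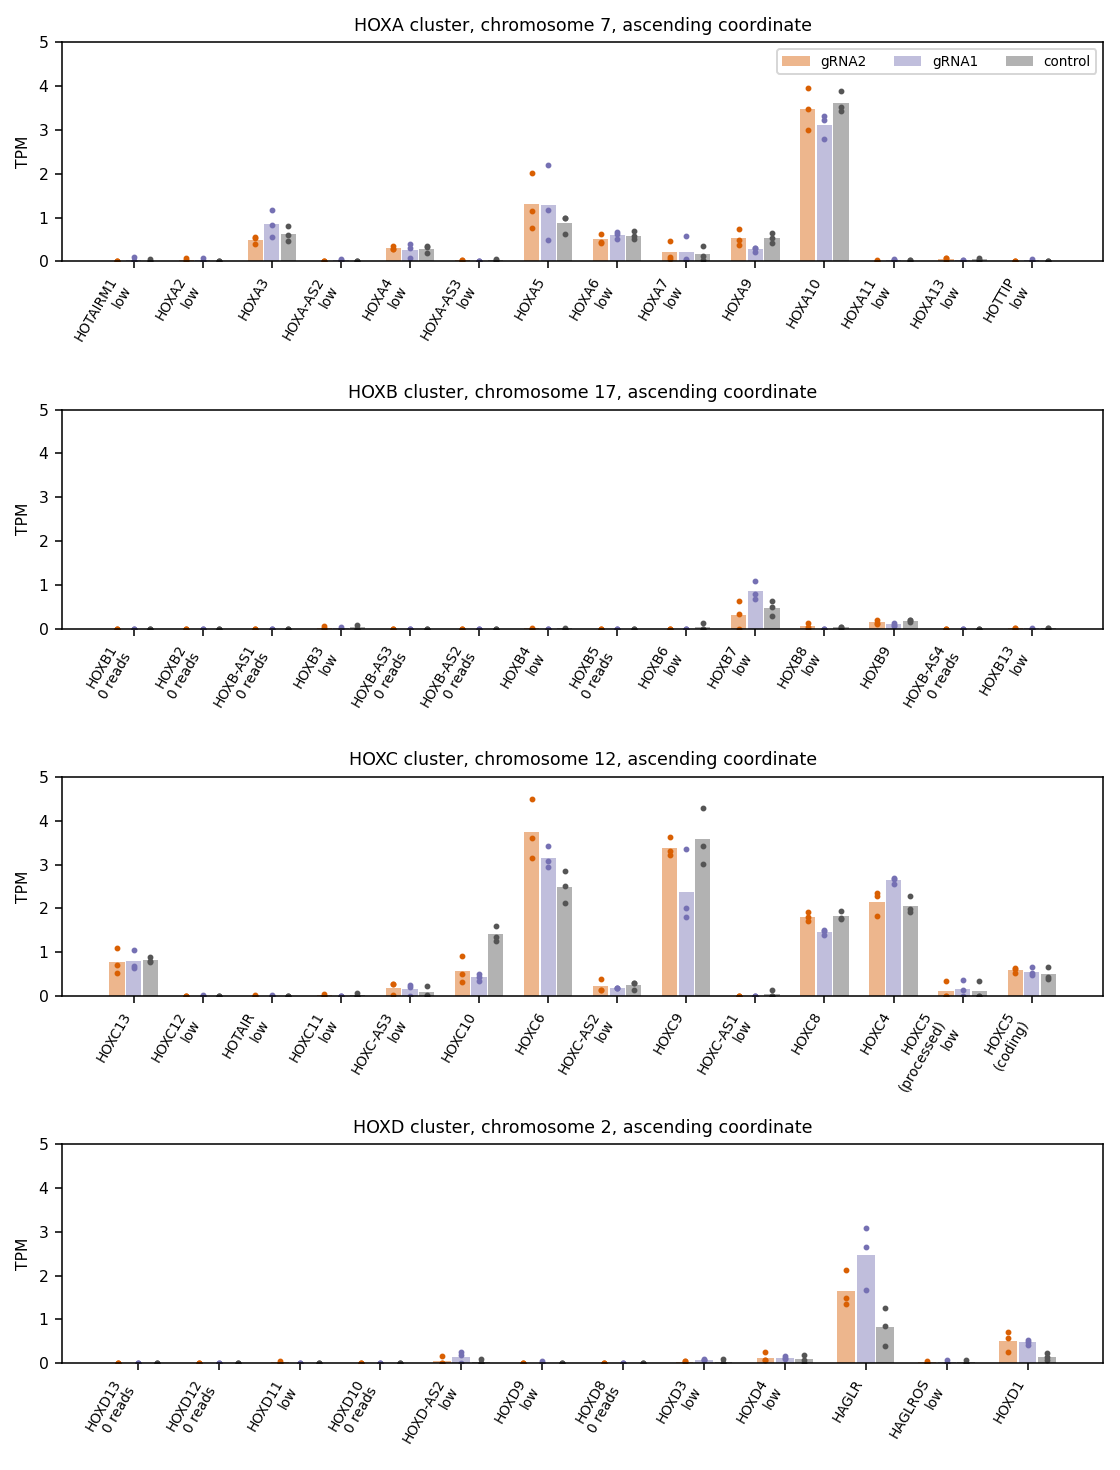
Level of HOX-cluster genes in TPM, by cluster and ascending coordinate on each chromosome; bars are means of 3 libraries (gRNA2, gRNA1, control from left to right) and points are libraries, with "low" under genes below the filter and "0 reads" under genes without a read. The highest controls are HOXA10 at 3.62 TPM and HOXC9 at 3.58 TPM, and the HOXB panel is almost empty.

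HOXA (hg38 chromosome 7) runs from its anterior to its posterior end with ascending coordinate. HOTAIRM1 and HOXA2 at the anterior end were near 0, with at most 3 reads in a library. HOXA3 followed, measured, with 17, 13 and 13 reads in gRNA2-labelled, 18, 23 and 15 in gRNA1-labelled and 16, 20 and 28 in control libraries. In CPM every gRNA2-labelled library was below every control, without a call (fold 0.658, 0.427 to 1.01, edgeR adjusted p = 0.229). The gRNA1-labelled libraries overlapped the controls (fold 0.886, 0.586 to 1.34, adjusted p = 0.768). HOXA-AS2 had 2 single reads and HOXA-AS3 at most 2 in a library. Between them lay HOXA4, below the filter with 1 to 10 reads a library.

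HOXA5, which in mice is needed for lung development, was measured at 22, 25 and 17 reads in gRNA2-labelled, 29, 30 and 12 in gRNA1-labelled and 22, 27 and 16 in control libraries. These ranges overlap throughout. HOXA6 (4 to 10 reads a library) and HOXA7 (1 to 6) stayed below the filter. HOXA9 had 13, 15 and 10 reads in gRNA2-labelled, 7, 9 and 8 in gRNA1-labelled and 12, 16 and 16 in control libraries. HOXA10, the leading gene of this cluster, had 3.47, 3.96 and 2.99 TPM in gRNA2-labelled, 3.31, 3.23 and 2.80 TPM in gRNA1-labelled and 3.44, 3.90 and 3.52 TPM in control libraries. Past it, HOXA11 (at most 2 reads), HOXA13 (0 to 8) and HOTTIP (at most 2) closed the cluster below the filter.

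HOXB (chromosome 17, 48528526 to 48729178) was the quietest cluster. From the anterior end, HOXB1, HOXB2 and HOXB-AS1 had no read, HOXB3 had at most 1 read in a library, HOXB-AS3 and HOXB-AS2 had none, HOXB4 had at most 1 and HOXB5 had none. HOXB6 had a single read in a control library. HOXB7 stood highest in TPM in this cluster although below the filter, with 3, 7 and 0 reads in gRNA2-labelled, 10, 8 and 7 in gRNA1-labelled and 4, 3 and 7 in control libraries. Most of these reads were assigned to a processed transcript of the gene (0 to 9.4 in a library), and its coding transcript had at most 1. HOXB8 had at most 1 read. HOXB9 was the single measured gene, with 12, 6 and 5 reads in gRNA2-labelled, 3, 5 and 7 in gRNA1-labelled and 7, 12 and 11 in control libraries. HOXB-AS4 had no read and HOXB13 at most 2.

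HOXC (chromosome 12, 53938765 to 54056030) runs the other way, from group 13 to group 4. HOXC13, a hair and nail gene, was measured at 26 to 34 reads in gRNA2-labelled, 28 to 40 in gRNA1-labelled and 35 to 36 in control libraries. HOXC12, HOTAIR and HOXC11 next to it had at most 3 reads in a library. HOTAIR had 2 reads in all, 1 in a gRNA2-labelled and 1 in a gRNA1-labelled library. HOXC-AS3 had at most 3 reads. From HOXC10 to HOXC5 every coding gene was measured: HOXC10, HOXC6, HOXC9, HOXC8, HOXC4 and HOXC5. The antisense genes among them were not, since HOXC-AS2 had 5 to 9 reads a library and HOXC-AS1 a single read. The processed HOXC5 transcript had 0 to 10 reads.

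Per length, HOXC9 averaged 3.58 ± 0.66 TPM, HOXC6 2.50 ± 0.364 TPM, HOXC4 2.06 ± 0.184 TPM, HOXC8 1.83 ± 0.0973 TPM and HOXC10 1.4 ± 0.175 TPM in controls (SD, n = 3). With HOXA10 at 3.62 ± 0.246 TPM they were the 6 HOX genes at 1 TPM or more in controls, and 12 reached 0.5 TPM. In that order HOXA10 and HOXC9 overlapped, as did HOXC6 with HOXC4 and HOXC4 with HOXC8, whereas all control values of HOXC9 were above all of HOXC6 and all of HOXC8 above all of HOXC10. The longest coding transcript of HOXC10 was estimated at only 0.268, 0.151 and 0.428 TPM in controls. The rest of the HOXC10 level lay on shorter transcripts, mostly processed ones. Among non-member genes inside the clusters, AC012531.1, a long intergenic RNA within the span of HOXC4, was measured, at 3.06 ± 0.317 CPM in gRNA2-labelled, 3.15 ± 0.396 CPM in gRNA1-labelled and 3.29 ± 0.422 CPM in control libraries. It was not called, with folds of 0.934 (edgeR adjusted p = 0.758) for gRNA2 and 0.954 (0.844) for gRNA1 against control.

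HOXD (chromosome 2, 176092891 to 176190907) was silent but for its anterior end. HOXD13, HOXD12, HOXD10 and HOXD8 had no read, HOXD11 and HOXD9 a single read each, HOXD-AS2 at most 3, HOXD3 at most 4 and HOXD4 at most 6 reads in a library. HAGLR and HOXD1, next to each other at the end of the cluster, were measured. HAGLROS had 1 read in 1 library of each group. Of the 15 noncoding genes other than HAGLR, none passed 10 reads in any library.

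The measured coding genes are close relatives, and how far reads can tell them apart depends on their sequences. The homeobox stretch that encodes the DNA recognition helix is shown for the measured paralogues of groups 9 and 10, whose levels are compared above, from GENCODE 29 transcripts on the strand of the gene. Capitals mark bases that differ between the genes of a group.
HOXA9: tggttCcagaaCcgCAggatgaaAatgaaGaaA
HOXB9: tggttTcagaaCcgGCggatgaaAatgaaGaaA
HOXC9: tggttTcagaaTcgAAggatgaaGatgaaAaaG
HOXA10: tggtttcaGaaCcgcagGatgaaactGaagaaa
HOXC10: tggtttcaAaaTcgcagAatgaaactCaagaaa

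In this stretch of 33 bases the group 9 genes differ at 7 positions and the group 10 genes at 4. All 39 coding HOX genes and 145 of 19702 coding genes in all (0.74%) carry the pattern by which the stretch was found. Over whole transcripts the measured coding genes are largely distinct from each other: of 78 pairs of these 13 genes, 3 share any stretch of 31 bases on the same strand. HOXC6 and HOXC4 share 454 such stretches, HOXC6 and HOXC9 share 44, and HOXA9 and HOXC5 share 1. The split of reads between HOXC6 and HOXC4 is therefore an estimate, and so is that of the coding HOXC5 gene, which shares 59.32% of its stretches, mostly with the processed HOXC5 transcript.

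HAGLR was the HOX-cluster gene that moved with both guides. It had 95, 125 and 61 reads in gRNA2-labelled libraries, 122, 133 and 120 in gRNA1-labelled libraries and 30, 40 and 41 in controls. Scaled to depth, that was 4.12 ± 0.58 CPM in gRNA2-labelled, 5.87 ± 0.172 CPM in gRNA1-labelled and 1.71 ± 0.154 CPM in control libraries (SD, n = 3 each). Every guide library was above every control. The fold was 2.43 for gRNA2 (95% interval 1.95 to 3.02, edgeR quasi-likelihood test, adjusted p = 0.000149 over 19658 genes) and 3.42 for gRNA1 (2.78 to 4.23, adjusted p = 5.19e-06) against control. The 2 comparisons share their control libraries.

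The guides also differed from each other. HAGLR was lower in the gRNA2-labelled than in the gRNA1-labelled libraries, with a fold of 0.709 (0.591 to 0.851, edgeR adjusted p = 0.0275) and no overlap of CPM values. In TPM the guides overlapped, at 2.12, 1.36 and 1.49 in gRNA2-labelled and 3.09, 2.65 and 1.66 in gRNA1-labelled libraries. The call between guides ended in DESeq2 (adjusted p = 0.0759), without any gRNA1 library (adjusted p 0.0699 to 0.0996) and without gRNA2 replicate 1 or 3 (0.0884 and 0.0914). HAGLR has 16 annotated transcripts, and its mean effective length as estimated per library ranged from 1173 to 4041 bases. With these lengths as an offset in edgeR, the gRNA1 fold against control kept its call (log2 1.72, adjusted p = 0.0355), while the gRNA2 call (log2 1.12, adjusted p = 0.159) and the call between guides (log2 -0.60, adjusted p = 0.429) ended.

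**Figure D2:**
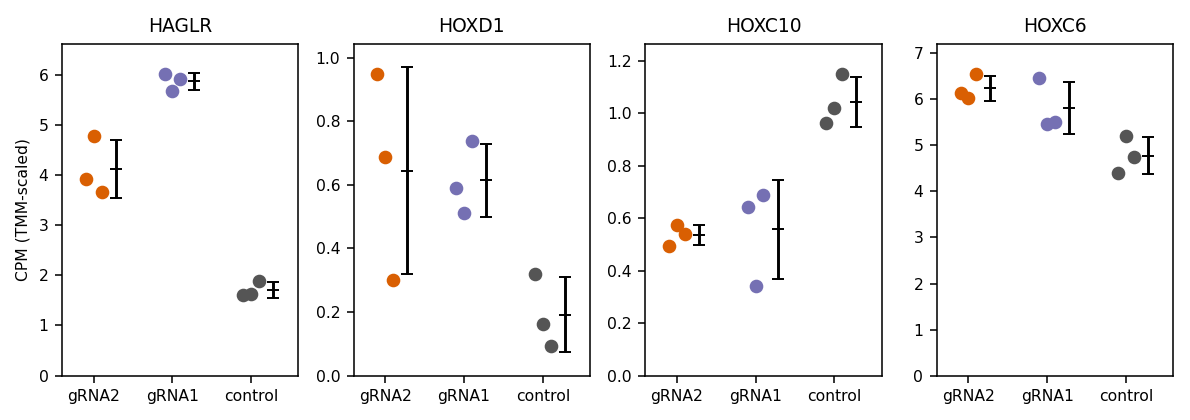
TMM-scaled CPM of HAGLR, HOXD1, HOXC10 and HOXC6 in each library (points, gRNA2, gRNA1 and control from left to right), with the mean and SD of 3 libraries beside them; each panel has its own axis from 0. HAGLR averages 4.12 CPM in gRNA2, 5.87 CPM in gRNA1 and 1.71 CPM in control, without overlap between groups.

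The annotated starts of HAGLR fall at a pair of sites. Of its transcripts, 8 begin beside HOXD1, with first bases between 176188269 and 176188958, and the other 8 begin at the internal site, between 176177568 and 176178129, which is 10450 to 11011 bases from the HOXD1 start. In gRNA2-labelled libraries 81, 78 and 41 reads were assigned to transcripts starting beside HOXD1, in gRNA1-labelled libraries 85, 77 and 119, and in controls 24, 0 and 11. To the internal start 14, 47 and 20 reads were assigned in gRNA2-labelled libraries, 37, 56 and 1 in gRNA1-labelled libraries and 6, 40 and 30 in controls. The first class was higher in every guide library than in every control, while the internal class overlapped between all groups.

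In CPM, the transcripts starting beside HOXD1 averaged 2.93 ± 0.441 in gRNA2-labelled, 4.45 ± 1.3 in gRNA1-labelled and 0.597 ± 0.647 in control libraries (SD, n = 3 each). Their fold against control was 5.36 for gRNA2 (2.5 to 11.5, edgeR adjusted p = 0.0101) and 8.01 for gRNA1 (3.88 to 16.6, adjusted p = 0.00219). The internal class averaged 1.19 ± 0.608 CPM in gRNA2-labelled, 1.42 ± 1.22 CPM in gRNA1-labelled and 1.11 ± 0.695 CPM in control libraries, and its folds were 1.05 for gRNA2 (0.382 to 2.86, adjusted p = 0.973) and 1.26 for gRNA1 (0.472 to 3.36, adjusted p = 0.818). Between the guides the fold of the first class was 0.669 (0.388 to 1.15, adjusted p = 0.431). This division was chosen after the HAGLR values were seen. The classes share exons, so the assignment of reads to them is an estimate, and the wide interval of the internal class does not show that it stayed level; whether the classes differ in their response was not tested.

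**Figure D3:**
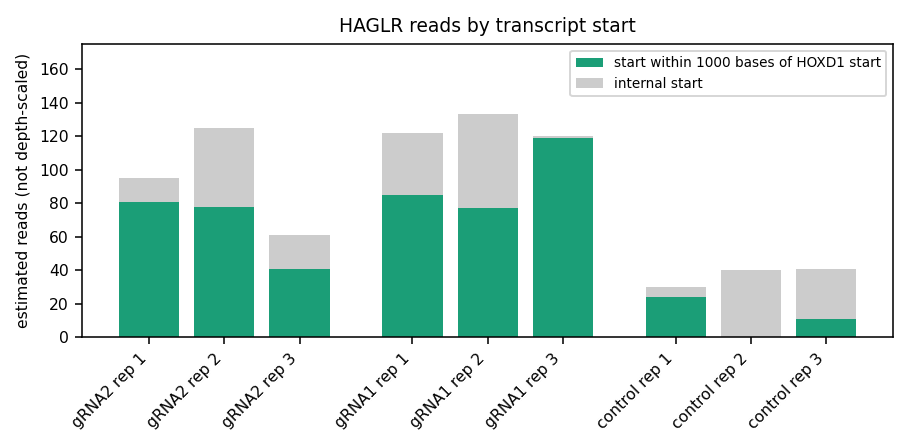
Estimated reads of HAGLR in each library, stacked by transcript start (green, within 1000 bases of the HOXD1 start; grey, internal start); reads are not scaled to depth. The green part is 41 to 119 reads in gRNA2 and gRNA1 libraries and 0 to 24 in controls.

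**Figure D4:**
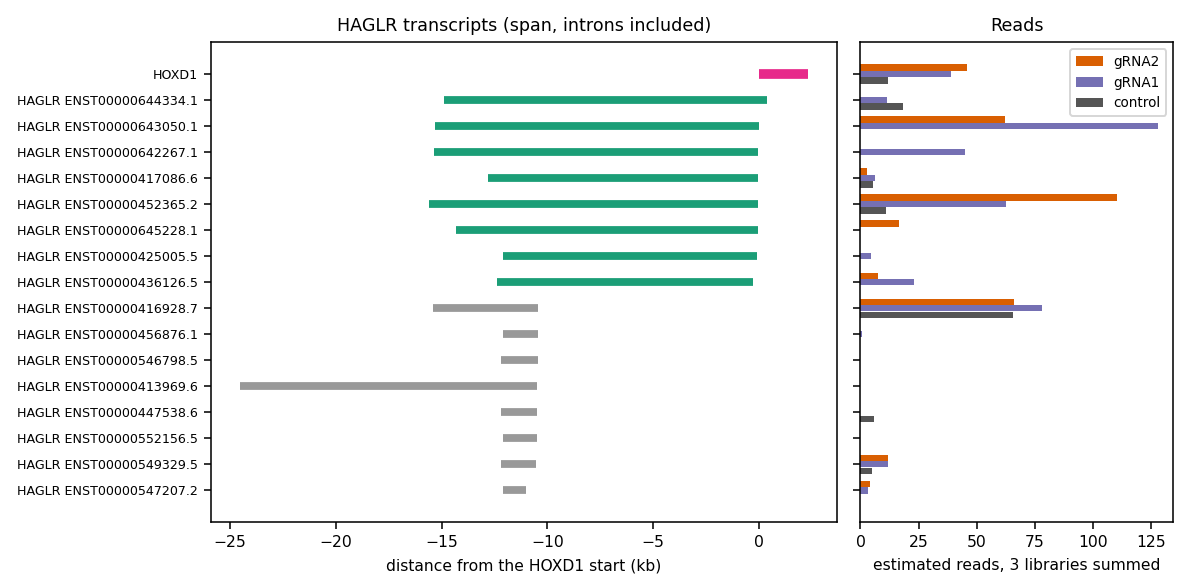
Left, span of HOXD1 and of each HAGLR transcript as distance from the HOXD1 start in kb, introns included, green for starts beside HOXD1 and grey for the internal site; right, estimated reads summed over the 3 libraries of each group. The green transcripts sum to 200 reads in gRNA2, 281 in gRNA1 and 35 in control, the grey ones to 81 in gRNA2, 94 in gRNA1 and 76 in control.

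HOXD1, a group 1 gene that faces HAGLR, was low in all libraries. It had 23, 18 and 5 reads in gRNA2-labelled, 12, 12 and 15 in gRNA1-labelled and 6, 4 and 2 in control libraries. That was 0.645 ± 0.327 CPM in gRNA2-labelled, 0.614 ± 0.116 CPM in gRNA1-labelled and 0.192 ± 0.117 CPM in control libraries. All gRNA1-labelled libraries were above all controls, and 1 of the gRNA2-labelled libraries was within the range of the controls. The fold against control was 3.55 for gRNA2 (1.71 to 7.35, edgeR adjusted p = 0.0339) and 3.22 for gRNA1 (1.53 to 6.8, adjusted p = 0.0591), and 1.1 (0.612 to 1.98, adjusted p = 0.905) between guides.

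HOXD1 was above the filter level in 5 libraries, all gRNA1-labelled ones and gRNA2 replicates 1 and 2, and in no control. It entered the test only through these libraries, where it was high. Its passing the filter and its rise with either guide are therefore not independent. Its gRNA2 call was lost without control replicate 2 or 3 (adjusted p = 0.115 and 0.141), without gRNA2 replicate 1 or 2 (0.115 and 0.112), without gRNA1 replicate 1 (0.0528) and with the transcript length offset (0.0798). Its gRNA1 fold was called with no filter (adjusted p = 0.0102), with only the 2 groups compared (0.04) and without gRNA2 replicate 1 (0.0483) or 3 (0.0384). The spans of HOXD1 and HAGLR overlap by 380 bases on opposite strands, and 2 of the 16 HAGLR transcripts reach into HOXD1. Only 1 of them, with first base 176188958, spans the whole overlap. It was assigned 18.5 reads in control replicate 1, 11.3 in gRNA1 replicate 1 and 0 in every other library. Of the 31-base stretches of HOXD1, 5.91% are also in HAGLR, read from the other strand. With AC009336.3, an opposite-strand gene that was not quantified in the files used here, the share is 55.22%. Whether counting used strand is not given in the sources used here, and without strand reads of the overlap cannot be assigned.

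Nearby genes give the context of the HOXD end. AC009336.1, an antisense gene within the span of HAGLR and on the same strand, had 16 reads in all, none of them in controls, at 0.0592 CPM in gRNA2-labelled and 0.186 CPM in gRNA1-labelled libraries, below the filter. MTX2, a mitochondrial protein gene that flanks the cluster, had 27.8 ± 1.42 CPM in gRNA2-labelled, 27.6 ± 0.953 CPM in gRNA1-labelled and 25.9 ± 1.16 CPM in control libraries. Its folds were 1.07 for gRNA2 (0.981 to 1.17, edgeR adjusted p = 0.34) and 1.07 for gRNA1 (0.975 to 1.16, adjusted p = 0.406). LNPK, which shapes endoplasmic reticulum junctions and flanks the other end, had folds of 0.954 (0.868 to 1.05, adjusted p = 0.576) for gRNA2 and 0.974 (0.886 to 1.07, adjusted p = 0.785) for gRNA1.

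Across the 14 measured HOX genes, 2 were called for gRNA2 against control, HAGLR and HOXD1, where 8.44% of all genes tested were called. For gRNA1 against control 1 was called, HAGLR, against 7.08% of all genes, and between gRNA2 and gRNA1 again 1, HAGLR, against 6.22%. By direction, 3.69% of all genes were higher and 4.75% lower for gRNA2 against control, 3.49% higher and 3.58% lower for gRNA1 against control, and 3.12% higher and 3.1% lower between gRNA2 and gRNA1. At an unadjusted edgeR p under 0.05 there were 4, 8 and 2 of the 14 in these comparisons, beside 4580, 4323 and 3862 of all 19658 genes tested. The median log2 fold of the measured members was -0.09, -0.13 and 0.05, beside 0.01, 0.0 and 0.0 over all genes tested. Of the 10 members above the filter level in every library, HAGLR alone was called in each comparison. In bulk RNA, a difference in the number of cells that express a gene and one in its RNA per cell cannot be told apart.

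**Figure D5:**
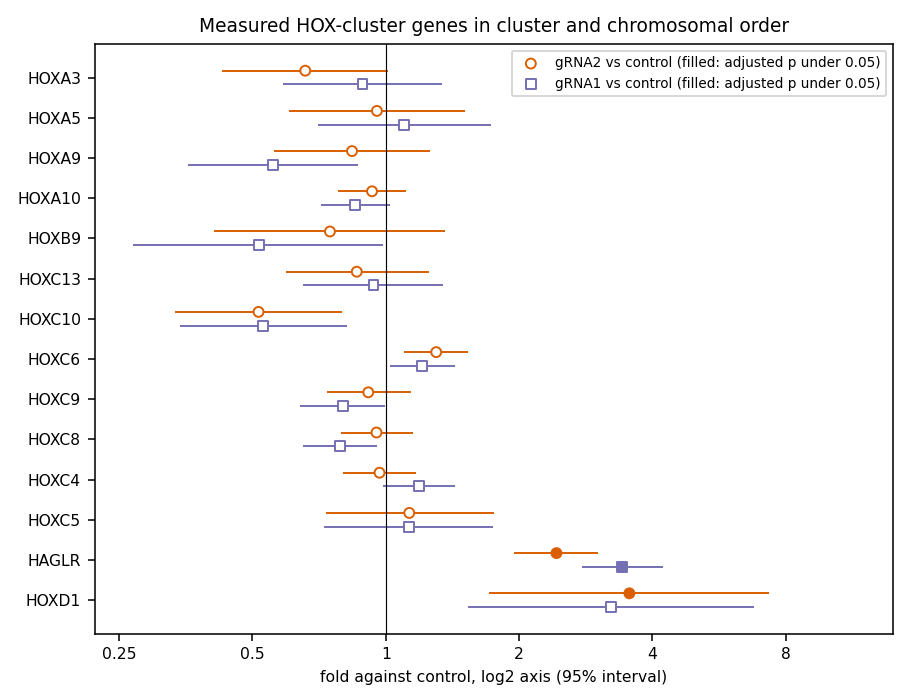
Fold against control with 95% intervals (log2 axis) for the 14 measured HOX-cluster genes, circles for gRNA2 and squares for gRNA1, filled where the edgeR adjusted p is under 0.05. HAGLR is filled for both guides and HOXD1 for gRNA2; HOXC10 lies near 0.52 for both without passing.

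HOXC10, a posterior gene of hindlimb and caudal identity, and HOXC6 came close to the threshold without passing it. HOXC10 had 12, 15 and 9 reads in gRNA2-labelled, 13, 8 and 14 in gRNA1-labelled and 18, 25 and 25 in control libraries, with every guide library below every control. Its fold was 0.516 (0.335 to 0.795, edgeR adjusted p = 0.0582) for gRNA2 and 0.529 (0.343 to 0.816, adjusted p = 0.0749) for gRNA1. It was called for gRNA2 with only the 2 groups compared (adjusted p = 0.0491) and without gRNA1 replicate 2 (0.0468), and for gRNA1 with the transcript length offset (0.0265). HOXC6, its neighbour, had 149, 158 and 109 reads in gRNA2-labelled, 131, 128 and 112 in gRNA1-labelled and 82, 128 and 103 in control libraries. In CPM all guide libraries were above all controls, with folds of 1.3 (1.1 to 1.53, adjusted p = 0.0547) for gRNA2 and 1.21 (1.02 to 1.43, adjusted p = 0.17) for gRNA1.

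The genes with the highest levels did not pass the test. HOXA10 had a fold of 0.931 (0.781 to 1.11, edgeR adjusted p = 0.66) for gRNA2 and 0.853 (0.714 to 1.02, adjusted p = 0.284) for gRNA1. HOXC9 had 92, 91 and 68 reads in gRNA2-labelled, 80, 68 and 62 in gRNA1-labelled and 66, 112 and 91 in control libraries, with folds of 0.913 (0.735 to 1.14, adjusted p = 0.648) and 0.799 (0.64 to 0.998, adjusted p = 0.224) for gRNA2 and gRNA1. HOXC8 and HOXC4 lay between 0.789 and 1.19 in the guide comparisons with control. The low genes HOXA9 and HOXB9 gave wider intervals, 0.839 (0.558 to 1.26) for gRNA2 and 0.557 (0.358 to 0.867, adjusted p = 0.124) for gRNA1 at HOXA9, and 0.748 (0.41 to 1.36) for gRNA2 and 0.516 (0.269 to 0.988, adjusted p = 0.219) for gRNA1 at HOXB9. HOXA9 passed the filter only through control and gRNA2-labelled libraries, and HOXB9 through 3 libraries, none of them gRNA1-labelled. For both genes, passing the filter and the lower gRNA1 level are therefore not independent.

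The partners and regulators of HOX genes are read against the share called over all genes tested, which was 3.69% higher and 4.75% lower for gRNA2 and 3.49% higher and 3.58% lower for gRNA1. HOX proteins bind DNA together with TALE homeodomain cofactors, the PBX, MEIS, PKNOX and TGIF families. Of 11 such genes 10 were measured and none was called against control. At an unadjusted edgeR p under 0.05 there were 2 for gRNA2 and 4 for gRNA1, beside 4580 and 4323 of all 19658 genes tested. Of 29 Polycomb genes 27 were measured. For gRNA2 3 were lower, beside 4.75% of all genes, and 0 higher. The lower ones were EZH2, the H3K27 methyltransferase, at 42.2 ± 0.711 CPM against 50.7 ± 0.698 CPM in controls (fold 0.833, edgeR adjusted p = 0.00183), the histone chaperone RBBP7 (fold 0.883, adjusted p = 0.0113) and RBBP4 (fold 0.888, adjusted p = 0.0173). For gRNA1 1 was lower, beside 3.58% of all genes, PHC1 of the canonical repressive complex (fold 0.799, adjusted p = 0.0308), and 0 higher. The RBBP7 and PHC1 calls ended with the transcript length offset (adjusted p = 0.17 and 0.181), the RBBP7 call also without control replicate 3 (0.0741) or gRNA2 replicate 2 (0.0512), and the PHC1 call without control replicate 2 (log2 -0.21, adjusted p = 0.139), any gRNA1 replicate (0.0793 to 0.0918) or gRNA2 replicate 2 (0.053). Their median log2 fold was -0.04 for gRNA2 and -0.05 for gRNA1.

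Of 15 trithorax and H3K27 demethylase genes, none was called for gRNA2 and 1 for gRNA1, beside 8.44% and 7.08% of all genes, the H3K36 methyltransferase ASH1L, which was higher (fold 1.15, edgeR adjusted p = 0.00641). Of 17 genes of retinoic acid signalling 10 were measured, with median log2 folds of 0.01 for gRNA2 and 0.15 for gRNA1. CYP26B1, which breaks down retinoic acid, was higher with both guides, at 3.99 ± 0.399 CPM in gRNA2-labelled, 4.17 ± 0.229 CPM in gRNA1-labelled and 2.67 ± 0.381 CPM in control libraries, with folds of 1.48 (adjusted p = 0.0243) and 1.55 (adjusted p = 0.0154) for gRNA2 and gRNA1. Both calls ended with the transcript length offset (adjusted p = 0.932 and 0.72) and without control replicate 1 (0.09 and 0.0639). The gRNA2 call also ended without control replicate 2 (0.0654) or gRNA2 replicate 1 or 3 (0.0704 and 0.0624), and the gRNA1 call without gRNA1 replicate 1 (0.0657). For gRNA1 the retinol uptake receptor STRA6 (fold 2.68, adjusted p = 0.000408) and the retinoic acid binding protein CRABP2 (fold 1.31, adjusted p = 0.000983) were higher too, so 3 of 10 were called higher beside 3.49% of all genes; no gene of the list was called lower with either guide at an adjusted p under 0.05.

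Of 40 matched non-HOX genes in or flanking the clusters, 27 were measured. For gRNA2 5 were lower and 0 higher, beside 4.75% and 3.69% of all genes, and for gRNA1 1 was lower and 1 higher, beside 3.58% and 3.49%. The higher one was SKAP2 beside HOXA, an adaptor protein gene (fold 1.2, edgeR adjusted p = 0.00252). The lower one for gRNA1 was NFE2L1 (fold 0.854, adjusted p = 0.0107). Among those lower for gRNA2 were HNRNPA1 (fold 0.905, adjusted p = 0.013) and CBX5 (fold 0.909, adjusted p = 0.0174). The median log2 fold of these genes was -0.01 for gRNA2 and 0.02 for gRNA1. None of the 6 ParaHox genes, the sister family of the HOX genes, was measured.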

How the data were processed

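Total RNA was sequenced after ribosomal RNA removal, per the labels' protocols. Transcripts were quantified with Salmon 1.4.0 on hg38, per the submitters' processing notes; how the index was built and whether strand was used are not given in the sources used here. The authors deposited, per the file headers, estimated counts and TPM per transcript with effective lengths. Here 202851 of 211939 listed transcripts (95.7%) were matched to GENCODE 29 by identifier, and estimated counts and TPM were summed per gene, the counts then rounded; unmatched transcripts held 1.26% to 1.33% of reads and were left out. Genes were filtered with edgeR 4.0.16 (filterByExpr, minimum count 10), scaled by TMM and fitted in a single quasi-likelihood model of all 9 libraries. P-values were Benjamini-Hochberg adjusted over 19658 genes, with a threshold of 0.05, after the script was tested on simulated data. Intervals are 95% and cover the model's error.

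Nothing in the labels says that replicates were separate cultures, so p-values measure the spread between these libraries, which may be technical. Values are named for members called in any comparison, for the member with the highest TPM in controls in each cluster, and for the 5 noncoding RNAs chosen by name; the other members, HOXC10 and HOXC6 included, were described after their values were seen. From each list of other genes up to 4 called members are named, and MTX2, LNPK and AC009336.1 were added after their values were seen. The members and all lists were chosen with earlier results of these data known. Alternatives were RLE scaling, no filter, a minimum of 5 reads, DESeq2 1.42.0, a replicate block, a transcript length offset, fits of only the 2 groups compared and leaving out each library. The values of 1 HOX-cluster gene and 1 marker gene are not reported here.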

Additional observations from a re-analysis of the deposited data

Results flagged for a closer look

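The difference between the guides at HAGLR met a rule for a closer look, because the same contrast with control gave different sizes for them and the difference itself was tested. HAGLR had a log2 fold of -0.50 in gRNA2-labelled against gRNA1-labelled libraries (edgeR adjusted p = 0.0275, 0.0189 to 0.429 over the settings run on all HAGLR reads and 0.0271 to 0.0996 over the fits without a library). All 3 gRNA2-labelled libraries lay below all 3 gRNA1-labelled libraries in CPM, whereas in TPM their ranges overlapped. Groups of 3 libraries were not examined for single outlying libraries.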

How the results depend on the processing

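The count of called HOX members moved with the settings. For gRNA1 against control it was 1 and became 2 with no filter, with the transcript length offset and with only the 2 groups compared, and 1 to 2 when libraries were left out. For gRNA2 against control it was 2 and became 0 with the length offset, 1 among members above the filter level in every library (added after seeing the data) and 1 to 3 when libraries were left out. Between the guides it was 1 and became 0 in DESeq2 and with the length offset, and 0 to 1 when libraries were left out. DESeq2 gave no adjusted p for 12 members for gRNA2 against control, HAGLR (unadjusted p = 9.87e-09) and HOXD1 (0.00561) among them, so it has no count there; HOXD1 was not tested for gRNA2 with only the 2 groups compared. Whether replicate numbers pair the libraries was not settled. Deviations of same-numbered libraries correlated at -0.139 to 0.21 over 9 pairs, and those of differently numbered libraries at -0.288 to 0.22 over 18 pairs. Of 9 libraries, 5 correlated best with their own number. With a replicate block the called members numbered 1 for gRNA1, 2 for gRNA2 and 1 between guides, and all called genes came to 1264, 1582 and 1144. Over all genes, 1391 were called for gRNA1, 1659 for gRNA2 and 1222 between guides, against 538, 434 and 446 with the length offset and 654 to 1701, 671 to 1817 and 575 to 1215 when libraries were left out. Members at 1 TPM or more in controls numbered 6, and 6 to 7 when a control was left out; at 0.5 TPM they numbered 12. With a minimum of 5 reads 21 members were measured. Signs turned when libraries were left out for HOXD1 between guides (log2 -0.22 to 0.41), LNPK for gRNA1 (-0.08 to 0.01) and AC005736.1 for gRNA2 (-0.17 to 0.0), none of them called. Depth limits the low members: those without about 10 reads in at least 3 libraries were tested only with the filter changed. The cause of these shifts was not tested.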
